A study of Homo sapiens with 12 samples.

Results

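The genes followed here encode chaperones and folding enzymes of the endoplasmic reticulum (ER) and the machinery of ER-associated degradation (ERAD). They were chosen by gene symbol from 7 roles, with earlier results of these data known. The shares of called members below, set beside those of all genes, are therefore no independent observation. All 48 were found among the 60580 symbols of each count file, and 47 of them were among the 16123 genes that reached 20 counts in any library. The exception, *DERL3*, which encodes a derlin of the ERAD channel, had 0 counts in all libraries used and was not tested. RNA of HCT116 cells, a human colorectal cancer line with intact *p53*, was sequenced in 4 groups. *WT* cells and cells in which the sequences of *miR-34a*, *miR-34b* and *miR-34c* had been deleted by CRISPR-Cas9 (*miR-34abc-KO* cells) each received either the solvent DMSO or 4 µM 5-fluorouracil (5-FU) for 48 h. 5-FU is an antimetabolite that blocks thymidylate synthesis and disturbs RNA processing. Clones were grown from single transfected cells, *WT* clones having received the empty vector, and the sources used here do not say whether the replicates of a genotype are different clones. A clone's own history and the deletion therefore cannot be told apart, and p-values measure the spread between these libraries.

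Proteins that enter the secretory pathway fold in the ER with the help of HSP70- and HSP90-type chaperones, disulfide isomerases and lectin chaperones that bind sugar chains. When unfolded proteins accumulate, the sensors IRE1α (*ERN1*), PERK (*EIF2AK3*) and ATF6 start the unfolded protein response, which slows translation and raises the transcription of chaperone and ERAD genes. XBP1 and ATF6 act on promoters together with the CCAAT-binding factor NF-Y. Proteins that fail to fold are passed back across the membrane, ubiquitinated and degraded by the proteasome.

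The sequence through which this response is best known to act is the ER stress response element (ERSE), which was first described in promoters of several of these genes, so its presence there is no independent observation. It was searched for as CCAAT and CCACG separated by 9 bases, on both strands, in the RefSeq promoter windows (GRCh38.p14, 250 bases before to 50 bases after a start site, any window of a gene). Windows were available for 44 members. The 9 matches are shown 5′ to 3′ on the gene's strand, with 5 bases on each side and both motif parts in capitals (ATTGG and CGTGG are the same parts on the opposite strand).
*XBP1* (chr22:28800603-28800621): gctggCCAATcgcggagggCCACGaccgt
*HSPA5* (chr9:125241391-125241409): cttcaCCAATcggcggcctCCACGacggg
*HSP90B1* (chr12:103930216-103930234): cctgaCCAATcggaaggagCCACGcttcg
*HSP90B1* (chr12:103930321-103930339): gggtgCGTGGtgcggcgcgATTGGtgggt
*CRELD2* (chr22:49918554-49918572): cctctCGTGGcgaactcggATTGGgccat
*PDIA6* (chr2:10812853-10812871): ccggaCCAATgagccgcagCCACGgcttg
*ERO1B* (chr1:236282183-236282201): gcccgCGTGGtcccgcctcATTGGccgcc
*CALR* (chr19:12938384-12938402): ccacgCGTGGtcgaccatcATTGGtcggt
*CANX* (chr5:179698778-179698796): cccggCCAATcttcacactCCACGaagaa

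The ERSE was present in 8 of 44 members (18.2%), compared to 25 of all 27305 genes with a window (0.0916%). The window of *HSPA5*, which encodes the main ER HSP70 chaperone BiP, is given whole because all other chaperones are described beside it (chr9:125241294-125241593, minus strand, ERSE parts in capitals).
*HSPA5* promoter: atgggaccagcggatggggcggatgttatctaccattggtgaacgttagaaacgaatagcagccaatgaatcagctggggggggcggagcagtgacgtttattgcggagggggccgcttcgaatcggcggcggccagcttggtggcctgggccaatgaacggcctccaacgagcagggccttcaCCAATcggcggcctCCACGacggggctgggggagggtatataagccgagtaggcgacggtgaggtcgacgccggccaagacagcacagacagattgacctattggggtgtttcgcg
The shorter ERSE-II (ATTGG and CCACG separated by 1 base) was present in 3 members, compared to 19 genes in all (0.0696%). These matches overlap with no ERSE and are shown because *HYOU1* and *HERPUD1* are among the members that differed between genotypes.
*HYOU1* (chr11:119057274-119057284): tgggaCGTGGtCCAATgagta
*HYOU1* (chr11:119057380-119057390): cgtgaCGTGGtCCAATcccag
*SDF2L1* (chr22:21642114-21642124): ggaagCGTGGaCCAATcaaaa
*HERPUD1* (chr16:56932025-56932035): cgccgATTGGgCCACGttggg
The UPRE (TGACGTGG), a sequence bound by XBP1 and ATF6, was present in *HYOU1*, *DNAJC10*, *TXNDC5*, *TXNDC11* and *SSR3*, which is 5 of 44 members (11.4%) compared to 0.927% of all genes. In *HYOU1* it overlapped with an ERSE-II. A single CCAAT was present in 35 members (79.5%, all genes 39.7%), a single CCACG in 33 (75%, all genes 42.1%), and the amino acid response element TGATGCAAT through which ATF4 acts in none of the 44 (all genes 0.293%).

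**Figure D1:**
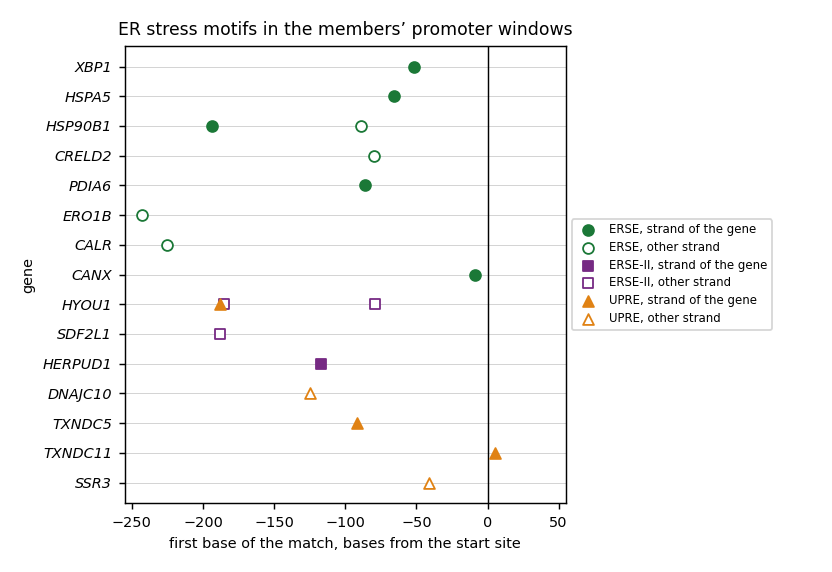
Position of the ERSE, ERSE-II and UPRE matches in the promoter windows of the members that hold one. The horizontal axis gives the first base of a match in bases from the start site, filled symbols lie on the strand of the gene and open symbols on the other strand. A match that lies in several windows of a gene is drawn once, at its nearest start site. 8 members held an ERSE, 3 an ERSE-II and 5 a UPRE.

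11 libraries were used, 3 per group except *WT* cells with 5-FU. The file of *WT* 5-FU replicate 1 was identical to that of *WT* DMSO replicate 3 in all 60580 genes and was left out, so that 2 libraries represent this group. The total counts ranged from 22831415 to 39064210. *MIR34A*, *MIR34B* and *MIR34C* had 0 counts in all libraries, *WT* cells included, and so do not check the genotype. The host transcript *MIR34AHG*, most of which lies outside the miRNA sequence and checks nothing either, was at 4.46 to 5.36 CPM (counts scaled to the library total) in *WT* and 21.9 to 22.5 CPM in *miR-34abc-KO* cells in DMSO, and at 15.4 to 16.97 CPM and 62.7 to 65.8 CPM with 5-FU. *CDKN1A*, the p21 gene induced by p53, was at 166 to 168 CPM in *WT* cells in DMSO and at 1977 and 2179 CPM after 5-FU, and at 453 to 488 and 2431 to 2534 CPM in *miR-34abc-KO* cells. *MDM2*, another p53 target, was at 134 to 145 and at 1005 and 1232 CPM in *WT* and at 189 to 197 and 794 to 822 CPM in *miR-34abc-KO* cells. The response to 5-FU differed between genotypes in both (interaction, log2 -1.24 ± 0.068, FDR = 1.41e-08 for *CDKN1A* and -0.92 ± 0.094, FDR = 4.79e-06 for *MDM2*, edgeR). Of 8 epithelial markers, 7 were above 1 CPM in all libraries and *VIL1* was near 0. Of the 13 leukocyte, fibroblast and endothelial markers only *COL1A1* was. The summed level of the 4 fibroblast markers was 22.1 to 27.0 CPM in *WT* and 46.5 to 51.0 CPM in *miR-34abc-KO* cells in DMSO, and 49.9 to 60.4 and 70.3 to 71.7 CPM with 5-FU. *DCN* and *COL3A1* were at or near 0 throughout, and the part of *COL1A1*-expressing cells in the results was not tested. In bulk RNA, a change in the share of cells that express a gene and a change in its RNA per cell cannot be told apart.

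The first question was whether the ER genes differ between *miR-34abc-KO* and *WT* cells. *HSPA5* (BiP), *HSP90B1*, *P4HB*, *CALR*, *DNAJB9* and *SEC24D* were among those at higher levels in *miR-34abc-KO* cells. In DMSO, 23 of 47 members were higher in *miR-34abc-KO* than in *WT* cells (48.9%) and 0 were lower. A difference was called at FDR < 0.05 and an absolute fold change > 1.5 (edgeR, adjusted over all 16123 genes). Log2 fold changes are given below ± SE. Of all genes tested, 9.1% were higher and 4.97% lower by the same rule. The median log2 fold change of the members was 0.58, that of all genes 0.026. Without a minimum fold change, 38 members were higher and 3 were lower (*PPP1R15A*, *CANX* and *DERL1*), compared to 24.5% and 21.9% of all genes, and the same 3 had an unadjusted p under 0.05. DESeq2 called 0 lower as well. The levels of all 48 members added up to between 11090 and 11225 CPM in *WT* cells and between 18442 and 18742 CPM in *miR-34abc-KO* cells. *HSPA5* contributed 8.56 to 9.37% of these sums, and without it they ranged from 10141 to 10247 CPM and from 16714 to 17019 CPM.

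With 5-FU, 20 of 47 members were higher in *miR-34abc-KO* cells (42.6%) and 0 were lower, compared to 7.58% and 10.6% of all genes. The median log2 fold change was 0.51, that of all genes -0.046. Again 38 members were higher and 3 lower without a minimum fold change (all genes 21.6% and 28%), 3 of the lower ones had an unadjusted p under 0.05, and DESeq2 called 22 higher and 0 lower. 17 members were called in both conditions, which is 73.9% of those in DMSO and 85% of those in 5-FU. The corresponding shares over all genes were not counted, so this overlap cannot be read as a trait of the members. *SDF2L1*, *UGGT1*, *HERPUD1*, *EDEM2*, *OS9* and *SEC61B* passed in DMSO and not with 5-FU, and *XBP1*, *ERO1B* and *EDEM1* the other way round. The sums were 7617 and 7841 CPM in *WT* and 12637 to 12781 CPM in *miR-34abc-KO* cells.

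Many members were at lower levels after 5-FU than in DMSO in both genotypes. A fit with an added RUVg-type factor called 0 of them, but this factor cannot be told apart from the treatment. In *WT* cells 2 members were higher and 11 were lower after 5-FU than in DMSO (4.26% and 23.4%), compared to 18.5% and 9.38% of all genes. In *miR-34abc-KO* cells 1 was higher and 16 were lower (2.13% and 34.04%), compared to 13.3% and 12% of all genes. Without a minimum fold change 6 were higher and 32 lower in *WT* cells (all genes 31.9% and 28.3%), and 5 and 35 in *miR-34abc-KO* cells (all genes 26.6% and 33.8%). The median log2 fold changes of the members were -0.32 and -0.38, those of all genes 0.034 and -0.059, but the members' medians turned to 0.32 and 0.12 when 1 RUVg-type factor, 96.9% of whose variance lay between treatments, entered the fit, and then 0 members were called in either genotype (edgeR, 10 with an unadjusted p under 0.05 in each). *HSPA5*, *HSP90B1*, *MANF*, *PDIA3*, *TXNDC5*, *CANX* and *SEC24D* were lower in both genotypes, and *PPP1R15A* was higher in both. The summed level after 5-FU of *miR-34abc-KO* cells (12637 to 12781 CPM) still lay above that of *WT* cells in DMSO.

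**Figure D2:**
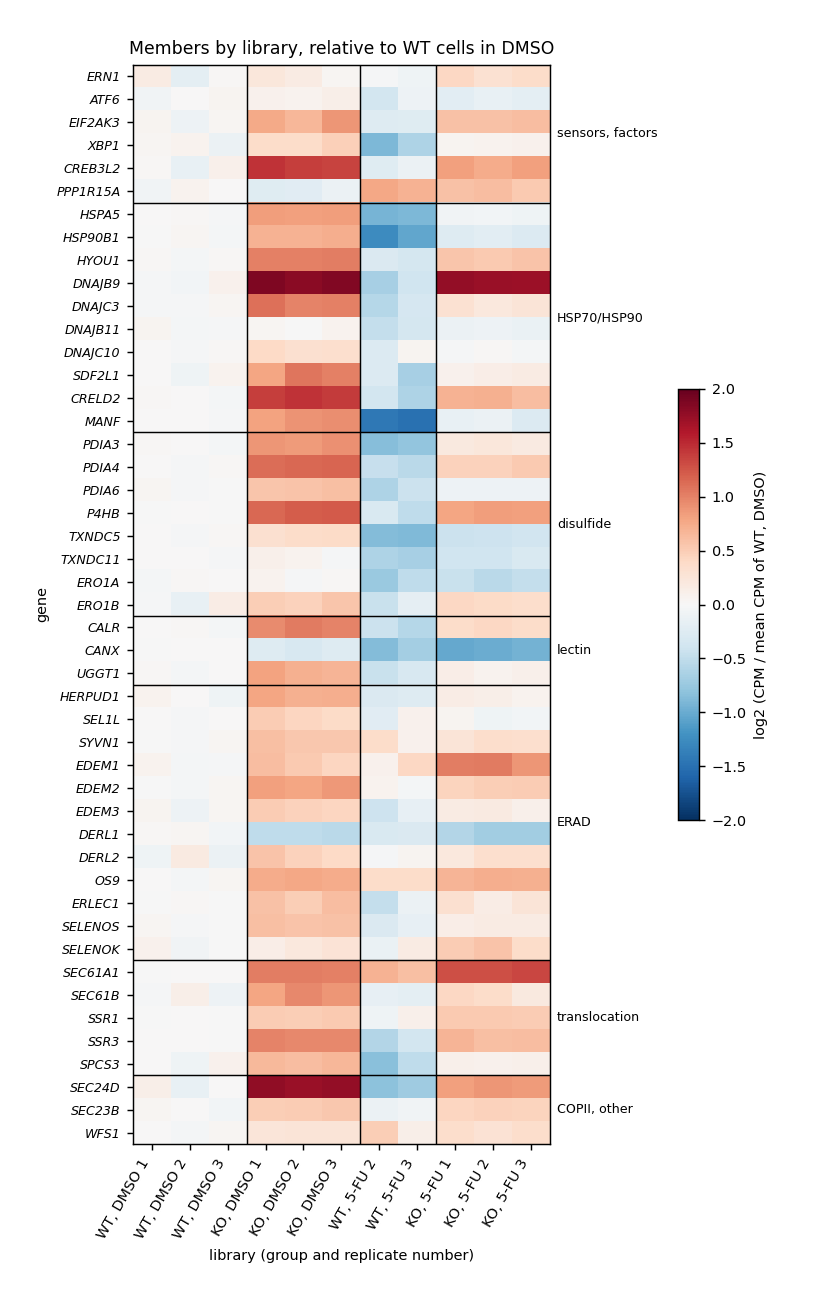
Level of the 47 tested members in each of the 11 libraries, as log2 of the CPM over the mean CPM of *WT* cells in DMSO (red higher, blue lower). Columns are libraries by group and replicate number, and black lines separate the groups and the roles. *DNAJB9*, *CRELD2*, *CREB3L2* and *SEC24D* are the darkest red in *miR-34abc-KO* cells in DMSO, and *MANF* is the darkest blue in *WT* cells with 5-FU.

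Among the 3 sensors, the RNA of PERK differed between genotypes and those of IRE1α and ATF6 did not pass the thresholds. *EIF2AK3* was at 21.4, 19.1 and 21.2 CPM in *WT* and at 34.8, 32.5 and 38.1 CPM in *miR-34abc-KO* cells in DMSO, and at 17.2 and 17.4 CPM and 30.8, 30.9 and 31.7 CPM with 5-FU. The groups did not overlap in either condition, but in DMSO the call was lost with 1 RUVg-type factor (0.71, FDR = 0.168). In DMSO *ERN1* reached 23.0, 18.04 and 20.9 CPM in *WT* and 24.2, 23.2 and 21.3 CPM in *miR-34abc-KO* cells, compared to 20.3 and 19.5 CPM and 27.6, 25.4 and 26.5 CPM with 5-FU. For *ATF6* the levels in DMSO were 61.0, 64.2 and 66.7 CPM (*WT*) and 68.2, 67.5 and 69.3 CPM (*miR-34abc-KO*), and those with 5-FU 49.8 and 59.4 CPM (*WT*) and 55.5, 57.5 and 56.0 CPM (*miR-34abc-KO*). For *ERN1* the log2 fold change in DMSO was 0.14 ± 0.086, FDR = 0.189, and with 5-FU it was 0.41 ± 0.094, FDR = 0.00188. For *ATF6* these values were 0.095 ± 0.062, FDR = 0.23, and 0.048 ± 0.070, FDR = 0.598. The *ATF6* levels of the genotypes overlapped with 5-FU, and those of *ERN1* in DMSO.

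The transcription factors of the response behaved unequally. *CREB3L2* was at 92.5, 82.2 and 97.1 CPM in *WT* and at 248, 236 and 232 CPM in *miR-34abc-KO* cells in DMSO, and at 76.99 and 83.6 CPM and 159, 151 and 160.1 CPM with 5-FU. CREB3L2 is a membrane-bound factor of the ATF6 type that raises genes of the secretory pathway, and all 6 *miR-34abc-KO* libraries lay above all 5 *WT* libraries. In DMSO *XBP1* reached 87.6, 88.9 and 78.2 CPM in *WT* and 109.6, 109 and 118 CPM in *miR-34abc-KO* cells, compared to 45.8 and 55.5 CPM and 88.1, 89.2 and 89.8 CPM with 5-FU. The *XBP1* RNA, which IRE1α splices to give the active factor, was measured here without regard to splicing. For *PPP1R15A* the levels in DMSO were 38.8, 42.8 and 41.1 CPM (*WT*) and 34.6, 34.9 and 37.7 CPM (*miR-34abc-KO*), and those with 5-FU 69.9 and 66.5 CPM (*WT*) and 61.5, 62.6 and 58.6 CPM (*miR-34abc-KO*). *PPP1R15A* encodes GADD34, which directs the phosphatase that reverses the translation block, and its levels after 5-FU lay above all levels in DMSO. The 3 largest differences between genotypes among the sensors and transcription factors in DMSO were *CREB3L2* (1.39 ± 0.060, FDR = 3.34e-11), *EIF2AK3* (0.77 ± 0.073, FDR = 3.36e-07) and *XBP1* (0.40 ± 0.067, FDR = 0.000121). With 5-FU the order was *CREB3L2* (0.97 ± 0.068, FDR = 1.35e-08), *EIF2AK3* (0.85 ± 0.083, FDR = 5.79e-07) and *XBP1* (0.82 ± 0.078, FDR = 3.77e-07). After 5-FU *WT* cells differed from DMSO in *XBP1* (-0.75 ± 0.077, FDR = 4.38e-07) and *PPP1R15A* (0.74 ± 0.065, FDR = 6.57e-08), and *EIF2AK3* stayed below the fold threshold (-0.25 ± 0.084, FDR = 0.0171). In *miR-34abc-KO* cells *PPP1R15A* rose (0.77 ± 0.061, FDR = 1.63e-08) and *CREB3L2* fell (-0.61 ± 0.058, FDR = 1.76e-07), whereas *XBP1* stayed below the fold threshold (-0.34 ± 0.067, FDR = 0.00039). The call of *CREB3L2* was lost with TMM factors, with DESeq2, without a filter on low counts, and without *miR-34abc-KO* DMSO replicate 1 or 5-FU replicate 2 (log2 fold change -0.58 in both of the last).

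HSP70 and HSP90 chaperones and their co-chaperones gave the most calls between genotypes. 8 of 10 were higher in *miR-34abc-KO* cells in DMSO (80%, all genes 9.1%) and 7 of 10 with 5-FU (70%, all genes 7.58%). After 5-FU 3 were lower in *WT* (30%, all genes 9.38%) and 6 in *miR-34abc-KO* cells (60%, all genes 12%). Their median log2 fold changes were 0.92, 0.86, -0.47 and -0.75. *HSPA5* was at 973, 981 and 949 CPM in *WT* and at 1728, 1712 and 1723 CPM in *miR-34abc-KO* cells in DMSO, and at 508 and 517 CPM and 922, 933 and 916 CPM with 5-FU. The *HSPA5* RNA thus stood at nearly the same level in *WT* cells in DMSO and in *miR-34abc-KO* cells with 5-FU. In DMSO *HSP90B1* reached 1752, 1812 and 1713 CPM in *WT* and 2845, 2857 and 2926 CPM in *miR-34abc-KO* cells, compared to 733 and 855 CPM and 1479, 1513 and 1463 CPM with 5-FU. HSP90B1 (GRP94) is the HSP90 of the ER. For *HYOU1* the levels in DMSO were 273, 261 and 272 CPM (*WT*) and 539.9, 539.7 and 544 CPM (*miR-34abc-KO*), and those with 5-FU 219.6 and 211 CPM (*WT*) and 393, 388 and 401 CPM (*miR-34abc-KO*). HYOU1 is a large HSP70-related protein that exchanges the nucleotide of BiP. For each of these 3 chaperones the groups did not overlap in any of the 4 comparisons. The same held for most members in each comparison, and the share over all genes was not counted.

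The co-chaperones included the member with the largest difference between genotypes. *DNAJB9* was at 18.1, 17.9 and 19.5 CPM in *WT* and at 67.6, 64.7 and 66.5 CPM in *miR-34abc-KO* cells in DMSO, and at 11.7 and 14.0 CPM and 62.4, 61.4 and 60.9 CPM with 5-FU. *DNAJB9* (GRCh38 chromosome 7, 108569867 to 108574850) encodes ERdj4, a J-domain protein that brings BiP to IRE1α. In DMSO *CRELD2* reached 38.6, 37.99 and 36.9 CPM in *WT* and 98.4, 103 and 99.7 CPM in *miR-34abc-KO* cells, compared to 29.4 and 24.7 CPM and 61.2, 62.1 and 58.2 CPM with 5-FU. *CRELD2*, whose window holds an ERSE, encodes a secreted ER stress protein with isomerase activity. For *DNAJC3* the levels in DMSO were 87.8, 87.2 and 91.9 CPM (*WT*) and 191, 177 and 179.6 CPM (*miR-34abc-KO*), and those with 5-FU 60.2 and 70.3 CPM (*WT*) and 109.6, 103 and 106 CPM (*miR-34abc-KO*). *DNAJC3* encodes p58IPK, a J-domain partner of BiP. *WT* libraries held *MANF* at 92.7, 92.7 and 90.4 CPM in DMSO and at 33.9 and 32.8 CPM with 5-FU, and *miR-34abc-KO* libraries at 161, 171 and 175 CPM and 82.6, 84.4 and 76.1 CPM. *MANF* encodes a small ER protein that stabilises BiP with its clients. *SDF2L1* was at 44.2, 41.4 and 46.3 CPM in *WT* and at 75.7, 92.6 and 88.2 CPM in *miR-34abc-KO* cells in DMSO, and at 36.3 and 27.8 CPM and 46.5, 48.3 and 49.1 CPM with 5-FU. SDF2L1 works with the J-domain protein DNAJB11. *DNAJB11* and *DNAJC10*, the latter a disulfide reductase with a J domain, were called in no comparison, with log2 fold changes between -0.41 and 0.35. All 3 levels of *CRELD2* and *DNAJB9* in *miR-34abc-KO* cells with 5-FU exceeded every level in *WT* cells.

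Within this role the 3 largest log2 fold changes between genotypes in DMSO were those of *DNAJB9* (1.84 ± 0.069, FDR = 8.71e-12), *CRELD2* (1.41 ± 0.062, FDR = 4.7e-11) and *DNAJC3* (1.04 ± 0.057, FDR = 6.95e-10). With 5-FU they were those of *DNAJB9* (2.26 ± 0.082, FDR = 9.86e-12), *MANF* (1.28 ± 0.062, FDR = 2.04e-10) and *CRELD2* (1.16 ± 0.072, FDR = 3.41e-09). Of these chaperones and co-chaperones, 5-FU lowered *MANF* (-1.46 ± 0.062, FDR = 8.79e-12), *HSP90B1* (-1.15 ± 0.057, FDR = 6.66e-11) and *HSPA5* (-0.92 ± 0.044, FDR = 4.36e-11) most in *WT* cells. The same 3 of this role were lowered most in *miR-34abc-KO* cells, *MANF* (-1.06 ± 0.051, FDR = 3.91e-11), *HSP90B1* (-0.95 ± 0.050, FDR = 9.84e-11) and *HSPA5* (-0.90 ± 0.039, FDR = 9.62e-12). With 1 RUVg-type factor the DMSO calls of *MANF* (0.64, FDR = 0.0617) and *SDF2L1* (0.029, FDR = 0.965) were lost. *DNAJB9* was not called after 5-FU in either genotype (-0.53 ± 0.083, FDR = 3.95e-05 in *WT* and -0.11 ± 0.064, FDR = 0.164 in *miR-34abc-KO* cells).

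**Figure D3:**
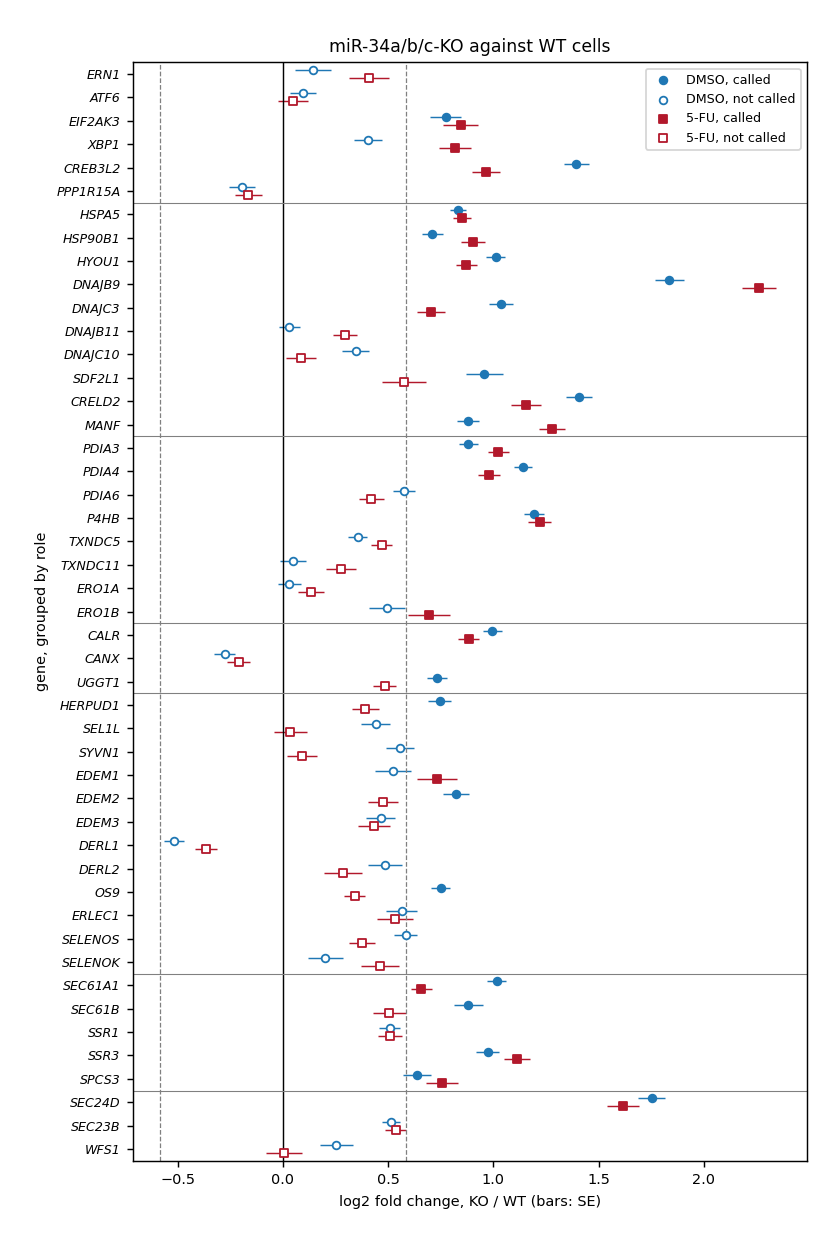
Log2 fold change of each tested member between *miR-34abc-KO* and *WT* cells in DMSO (blue circles) and with 5-FU (red squares), bars giving the SE. Filled symbols were called, dashed lines mark a fold change of 1.5 and 0 lies at the solid line. 23 members were called higher in DMSO and 20 with 5-FU, and the 3 members left of 0 are *PPP1R15A*, *CANX* and *DERL1*.

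Of the 8 disulfide isomerases and oxidases, 3 were higher in *miR-34abc-KO* cells in DMSO (37.5%, all genes 9.1%) and 4 with 5-FU (50%, all genes 7.58%). After 5-FU 4 were lower in each genotype (50%, all genes 9.38% in *WT* and 12% in *miR-34abc-KO* cells). *P4HB* was at 1172, 1184 and 1167 CPM in *WT* and at 2614, 2707 and 2734 CPM in *miR-34abc-KO* cells in DMSO, and at 948 and 829 CPM and 2035, 2107 and 2063 CPM with 5-FU. *P4HB* (chromosome 17, 81843159 to 81860856) encodes protein disulfide isomerase itself, which is also a subunit of prolyl 4-hydroxylase. In DMSO *PDIA4* reached 436, 428 and 439.7 CPM in *WT* and 941, 959.7 and 977 CPM in *miR-34abc-KO* cells, compared to 316 and 300.5 CPM and 598, 598 and 627 CPM with 5-FU. For *PDIA3* the levels in DMSO were 565, 560.5 and 543 CPM (*WT*) and 1024, 1003 and 1047 CPM (*miR-34abc-KO*), and those with 5-FU 308 and 321 CPM (*WT*) and 639, 649 and 632 CPM (*miR-34abc-KO*). PDIA4 is the isomerase ERp72, and PDIA3 (ERp57) works with the lectin chaperones. In all 3 isomerases the *miR-34abc-KO* libraries lay above the *WT* libraries of the same condition. *PDIA6* was at 326, 314 and 315 CPM in *WT* and at 465, 474 and 483 CPM in *miR-34abc-KO* cells in DMSO, and at 207 and 237 CPM and 297, 296 and 298 CPM with 5-FU. In DMSO *TXNDC5* reached 403, 393 and 407 CPM in *WT* and 499, 516 and 523 CPM in *miR-34abc-KO* cells, compared to 219.7 and 217 CPM and 298, 301 and 308 CPM with 5-FU. These isomerases were called after 5-FU only, *PDIA6* in *miR-34abc-KO* cells and *TXNDC5* in both genotypes. For *TXNDC11* the levels in DMSO were 37.2, 37.3 and 36.5 CPM (*WT*) and 39.7, 38.8 and 36.5 CPM (*miR-34abc-KO*), and those with 5-FU 24.1 and 23.3 CPM (*WT*) and 28.2, 28.1 and 30.0 CPM (*miR-34abc-KO*). *ERO1A* was at 169, 175 and 174 CPM in *WT* and at 182, 171 and 176 CPM in *miR-34abc-KO* cells in DMSO, and at 104 and 121 CPM and 127, 119 and 124 CPM with 5-FU. In DMSO *ERO1B* reached 15.3, 14.0 and 17.3 CPM in *WT* and 21.8, 21.3 and 22.7 CPM in *miR-34abc-KO* cells, compared to 11.4 and 13.6 CPM and 20.6, 20.1 and 19.9 CPM with 5-FU. ERO1A and ERO1B are the oxidases that recharge the isomerases, and TXNDC11 is a thioredoxin-domain protein that acts with EDEM proteins in ERAD. *ERO1A* and *TXNDC11* showed overlapping levels between genotypes in DMSO.

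The largest differences between genotypes in this role were *P4HB* (1.19 ± 0.047, FDR = 1.22e-11), *PDIA4* (1.14 ± 0.045, FDR = 1.22e-11) and *PDIA3* (0.88 ± 0.043, FDR = 1.49e-10) in DMSO. With 5-FU they were *P4HB* (1.22 ± 0.054, FDR = 7.56e-11), *PDIA3* (1.02 ± 0.050, FDR = 2.04e-10) and *PDIA4* (0.98 ± 0.051, FDR = 4.71e-10). *WT* cells responded to 5-FU most in *TXNDC5* (-0.88 ± 0.051, FDR = 3.9e-10), *PDIA3* (-0.82 ± 0.049, FDR = 5.83e-10) and *TXNDC11* (-0.64 ± 0.070, FDR = 8.8e-07). *miR-34abc-KO* cells responded most in *TXNDC5* (-0.76 ± 0.044, FDR = 3.89e-10), *PDIA3* (-0.68 ± 0.043, FDR = 1.11e-09) and *PDIA6* (-0.68 ± 0.052, FDR = 1.29e-08). Without *WT* 5-FU replicate 2 the difference of *ERO1B* between genotypes with 5-FU (0.57) and the response of *ERO1A* in *WT* cells (-0.52) fell below the fold threshold.

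The lectin chaperones *CALR* and *CANX* had log2 fold changes of opposite sign between genotypes. *CALR* was at 925, 928 and 894 CPM in *WT* and at 1773, 1882 and 1818 CPM in *miR-34abc-KO* cells in DMSO, and at 677 and 619 CPM and 1185, 1218 and 1181 CPM with 5-FU. In DMSO *CANX* reached 1289.5, 1303 and 1297 CPM in *WT* and 1085, 1043 and 1083 CPM in *miR-34abc-KO* cells, compared to 708 and 813 CPM and 640.2, 655 and 676 CPM with 5-FU. Calreticulin (CALR) and calnexin (CANX) bind the same monoglucosylated sugar chains, the first in the ER lumen and the second in its membrane. For *UGGT1* the levels in DMSO were 118, 114 and 118 CPM (*WT*) and 204, 191 and 188 CPM (*miR-34abc-KO*), and those with 5-FU 85.6 and 93.9 CPM (*WT*) and 127, 123 and 125 CPM (*miR-34abc-KO*). UGGT1 adds the glucose that returns a misfolded glycoprotein to them. In DMSO the log2 fold changes were 0.99 ± 0.045, FDR = 5.79e-11 for *CALR*, 0.73 ± 0.049, FDR = 6.59e-09 for *UGGT1* and -0.28 ± 0.050, FDR = 0.000267 for *CANX*. With 5-FU they were 0.88 ± 0.051, FDR = 1.57e-09 for *CALR*, 0.48 ± 0.056, FDR = 3.36e-06 for *UGGT1* and -0.21 ± 0.056, FDR = 0.00483 for *CANX*. *CANX* was below the fold threshold in both, with *miR-34abc-KO* libraries below *WT* libraries in each condition. After 5-FU *WT* cells had less *CANX* (-0.77 ± 0.057, FDR = 8.23e-09), with *CALR* (-0.50 ± 0.050, FDR = 3.39e-07) and *UGGT1* (-0.38 ± 0.056, FDR = 2.09e-05) below the fold threshold. In *miR-34abc-KO* cells all 3 were called lower (all genes 12%), *CANX* (-0.70 ± 0.050, FDR = 4.71e-09), *UGGT1* (-0.63 ± 0.049, FDR = 1.45e-08) and *CALR* (-0.61 ± 0.045, FDR = 6.45e-09). The call of *CALR* was lost with TMM factors, with DESeq2 and without a filter on low counts, and that of *UGGT1* with DESeq2.

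Of the 12 tested ERAD genes, 3 were higher in *miR-34abc-KO* cells in DMSO (25%, all genes 9.1%) and 1 with 5-FU (8.33%, all genes 7.58%). Without a minimum fold change 10 were higher in DMSO and 9 with 5-FU (all genes 24.5% and 21.6%), so most of these differences were smaller than 1.5-fold. After 5-FU 0 were called in *WT* cells, where 3 were higher and 5 lower at FDR < 0.05 alone (all genes 31.9% and 28.3%). 8 had an unadjusted p under 0.05 there and DESeq2 called 0. In *miR-34abc-KO* cells 1 was lower (8.33%, all genes 12%). *HERPUD1* was at 49.7, 47.6 and 44.4 CPM in *WT* and at 81.9, 77.5 and 77.9 CPM in *miR-34abc-KO* cells in DMSO, and at 38.6 and 39.5 CPM and 52.3, 51.5 and 49.7 CPM with 5-FU. HERPUD1 organises the ubiquitin ligase complex at the ER membrane. In DMSO *OS9* reached 157, 152 and 161 CPM in *WT* and 262, 268 and 263 CPM in *miR-34abc-KO* cells, compared to 204 and 201 CPM and 253, 260.2 and 257 CPM with 5-FU. OS9 is a lectin that hands glycoproteins to this complex. For *EDEM1* the levels in DMSO were 28.5, 26.3 and 26.7 CPM (*WT*) and 41.8, 38.9 and 36.5 CPM (*miR-34abc-KO*), and those with 5-FU 28.7 and 36.2 CPM (*WT*) and 55.1, 56.0 and 49.9 CPM (*miR-34abc-KO*). *EDEM2* was at 24.5, 23.9 and 25.2 CPM in *WT* and at 43.1, 42.4 and 44.8 CPM in *miR-34abc-KO* cells in DMSO, and at 25.6 and 23.8 CPM and 33.5, 34.7 and 35.0 CPM with 5-FU. EDEM1 and EDEM2 take part in trimming mannose from glycoproteins marked for degradation. *EDEM1* was highest in *miR-34abc-KO* cells with 5-FU, and *EDEM2* in *miR-34abc-KO* cells in DMSO.

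The 3 largest differences between genotypes among the ERAD genes in DMSO were *EDEM2* (0.82 ± 0.062, FDR = 2.77e-08), *OS9* (0.75 ± 0.045, FDR = 1.85e-09) and *HERPUD1* (0.74 ± 0.056, FDR = 2.66e-08). *EDEM2* lost this call with 1 RUVg-type factor (0.60, FDR = 0.148). With 5-FU they were *EDEM1* (0.73 ± 0.095, FDR = 1.1e-05), *ERLEC1* (0.53 ± 0.086, FDR = 9.13e-05) and *EDEM2* (0.48 ± 0.070, FDR = 3.71e-05), of which *EDEM1* alone was called, and not without *WT* 5-FU replicate 2 (0.57). The response to 5-FU was 0.37 ± 0.050, FDR = 9.52e-06 for *OS9*, -0.30 ± 0.053, FDR = 0.000145 for *DERL1* and -0.29 ± 0.086, FDR = 0.00809 for *ERLEC1* in *WT* cells. In *miR-34abc-KO* cells it was -0.63 ± 0.056, FDR = 6.99e-08 for *HERPUD1*, -0.47 ± 0.069, FDR = 2.08e-05 for *SEL1L* and 0.46 ± 0.084, FDR = 0.00018 for *EDEM1*. *HERPUD1* was not called by DESeq2 in that comparison. SEL1L and SYVN1 (HRD1) form the core of the ubiquitin ligase, and their log2 fold changes between genotypes were 0.44 and 0.56 in DMSO and 0.035 and 0.090 with 5-FU. *EDEM3*, *DERL2*, *ERLEC1*, *SELENOS* and *SELENOK* ranged from 0.20 to 0.58 in DMSO and were called in no comparison.

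*DERL1*, which encodes a channel protein of ERAD, was the member that was lowest in *miR-34abc-KO* relative to *WT* cells. *DERL1* was at 128, 129 and 121 CPM in *WT* and at 88.4, 89.2 and 86.4 CPM in *miR-34abc-KO* cells in DMSO, and at 102 and 103 CPM and 83.6, 77.8 and 77.6 CPM with 5-FU. The genotypes did not overlap in either condition, but the log2 fold changes of -0.52 ± 0.048, FDR = 2.48e-07 in DMSO and -0.37 ± 0.053, FDR = 3.33e-05 with 5-FU did not reach the fold threshold. The 40 tested genes nearest to *DERL1* on chromosome 8 had a median log2 fold change of -0.67 in DMSO and -0.68 with 5-FU, and 7.5% of them were above 0 in each. For all other members the corresponding medians lay between -0.14 and 0.19 in DMSO and between -0.29 and 0.25 with 5-FU. What part the region has in the level of *DERL1* was not tested.

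In the translocation role, 4 of 5 genes were higher in *miR-34abc-KO* cells in DMSO (80%, all genes 9.1%) and 3 with 5-FU (60%, all genes 7.58%). *SEC61A1* was at 303, 307 and 306 CPM in *WT* and at 619.7, 621 and 611 CPM in *miR-34abc-KO* cells in DMSO, and at 496 and 461 CPM and 743, 748 and 774 CPM with 5-FU. SEC61A1 forms the pore through which new chains enter the ER. *SEC61A1* (chromosome 3, 128051641 to 128071705) was also higher after 5-FU in both genotypes, called in *WT* cells, and its lowest levels were those of *WT* cells in DMSO. In DMSO *SEC61B* reached 55.3, 61.3 and 52.4 CPM in *WT* and 96.9, 110.0 and 104 CPM in *miR-34abc-KO* cells, compared to 50.3 and 49.0 CPM and 75.2, 72.3 and 64.2 CPM with 5-FU. For *SSR3* the levels in DMSO were 192, 192 and 189 CPM (*WT*) and 379, 372 and 374 CPM (*miR-34abc-KO*), and those with 5-FU 128 and 147 CPM (*WT*) and 305, 291 and 294 CPM (*miR-34abc-KO*). SEC61B is a small subunit of the same channel and SSR3 a subunit of the translocon-associated complex. *SPCS3* was at 186, 175 and 196 CPM in *WT* and at 291, 284 and 293 CPM in *miR-34abc-KO* cells in DMSO, and at 104 and 130.04 CPM and 198, 197 and 199 CPM with 5-FU. SPCS3 belongs to the signal peptidase. *SSR1*, a further subunit of the translocon-associated complex, had a log2 fold change of 0.51 ± 0.050, FDR = 4.89e-07 in DMSO and 0.51 ± 0.056, FDR = 1.86e-06 with 5-FU, and its levels with and without 5-FU overlapped.

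In DMSO the genotypes differed most, within this role, in *SEC61A1* (1.02 ± 0.045, FDR = 5.01e-11), *SSR3* (0.97 ± 0.054, FDR = 6.88e-10) and *SEC61B* (0.88 ± 0.070, FDR = 4.84e-08). *SEC61B* lost this call with 1 RUVg-type factor (0.82, FDR = 0.0967). With 5-FU they differed most in *SSR3* (1.11 ± 0.062, FDR = 1.01e-09), *SPCS3* (0.76 ± 0.076, FDR = 7.36e-07) and *SEC61A1* (0.66 ± 0.051, FDR = 3.55e-08). 5-FU changed *SPCS3* (-0.67 ± 0.076, FDR = 1.4e-06) and *SEC61A1* (0.65 ± 0.049, FDR = 1.14e-08) in *WT* cells, and *SSR3* stayed below the fold threshold (-0.48 ± 0.061, FDR = 4.6e-06). No gene of this role was called in *miR-34abc-KO* cells, where the largest log2 fold changes were those of *SEC61B* (-0.55 ± 0.070, FDR = 3.76e-06), *SPCS3* (-0.55 ± 0.067, FDR = 2.64e-06) and *SSR3* (-0.34 ± 0.053, FDR = 4.08e-05). 4 of these 5 genes had an unadjusted p under 0.05 there, and DESeq2 called 0. The call of *SPCS3* in *WT* cells was lost without *WT* 5-FU replicate 2 (-0.52).

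*SEC24D*, a cargo adaptor of the COPII vesicles that leave the ER, gave the second-largest difference between genotypes. *SEC24D* was at 38.2, 31.5 and 35.4 CPM in *WT* and at 120.2, 116 and 119 CPM in *miR-34abc-KO* cells in DMSO, and at 19.9 and 21.5 CPM and 62.1, 64.9 and 63.0 CPM with 5-FU. All 6 *miR-34abc-KO* libraries lay above all 5 *WT* libraries. The log2 fold change was 1.75 ± 0.064, FDR = 5.92e-12 in DMSO and 1.62 ± 0.076, FDR = 1.6e-10 with 5-FU, and the response to 5-FU was -0.77 ± 0.076, FDR = 2.81e-07 in *WT* and -0.90 ± 0.061, FDR = 2.76e-09 in *miR-34abc-KO* cells. *SEC23B*, which encodes another subunit of the coat, and *WFS1*, which encodes the ER membrane protein wolframin, were not called. Their log2 fold changes between genotypes were 0.51 ± 0.044, FDR = 1.05e-07 and 0.25 ± 0.077, FDR = 0.0125 in DMSO, and 0.54 ± 0.050, FDR = 2.93e-07 and 0.0053 ± 0.084, FDR = 0.965 with 5-FU. After 5-FU they were -0.094 ± 0.049, FDR = 0.111 and 0.32 ± 0.084, FDR = 0.00326 in *WT* cells, and -0.073 ± 0.044, FDR = 0.162 and 0.076 ± 0.076, FDR = 0.408 in *miR-34abc-KO* cells.

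**Figure D4:**
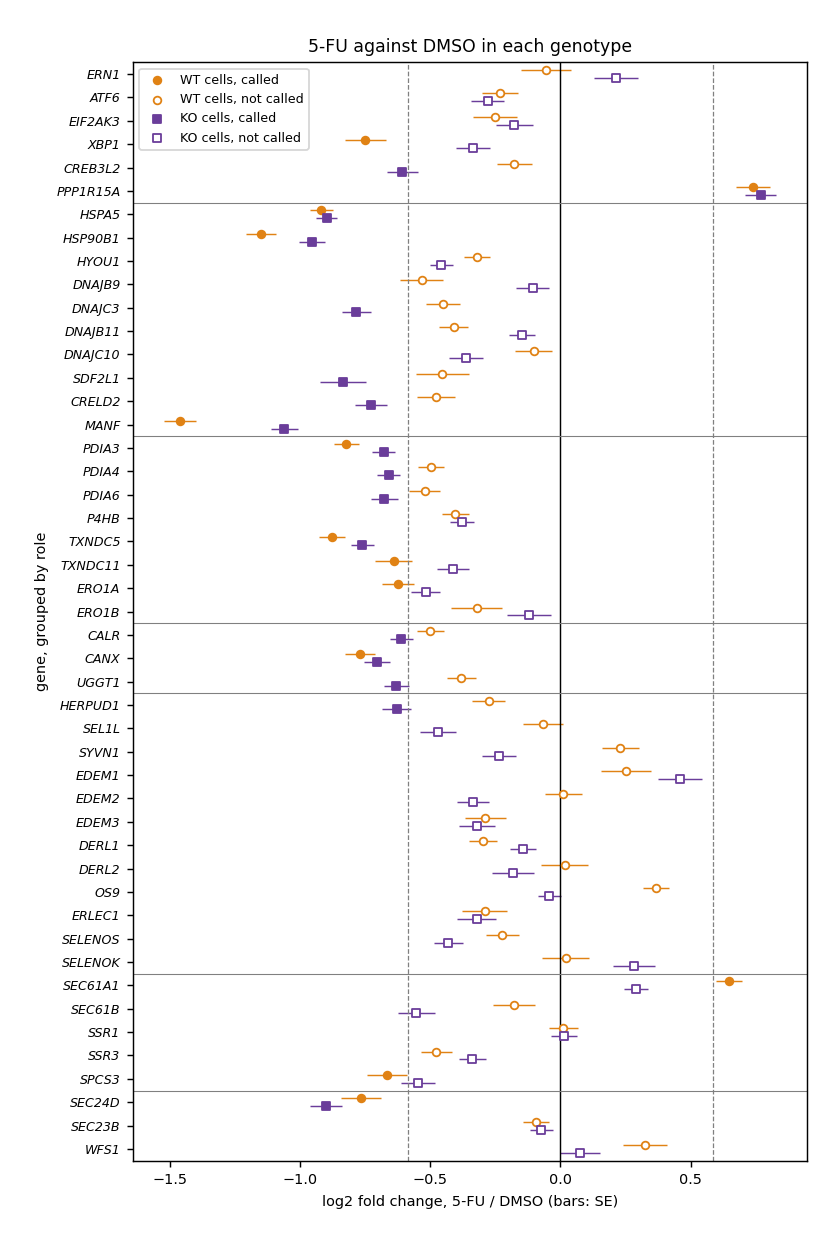
Log2 fold change of each tested member after 5-FU compared to DMSO in *WT* cells (orange circles) and *miR-34abc-KO* cells (purple squares), bars giving the SE. Filled symbols were called and dashed lines mark a fold change of 1.5. 11 members were called lower in *WT* and 16 in *miR-34abc-KO* cells, and *PPP1R15A* and *SEC61A1* lie to the right. With an added RUVg-type factor, which cannot be told apart from the treatment, none of these was called.

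**Figure D5:**
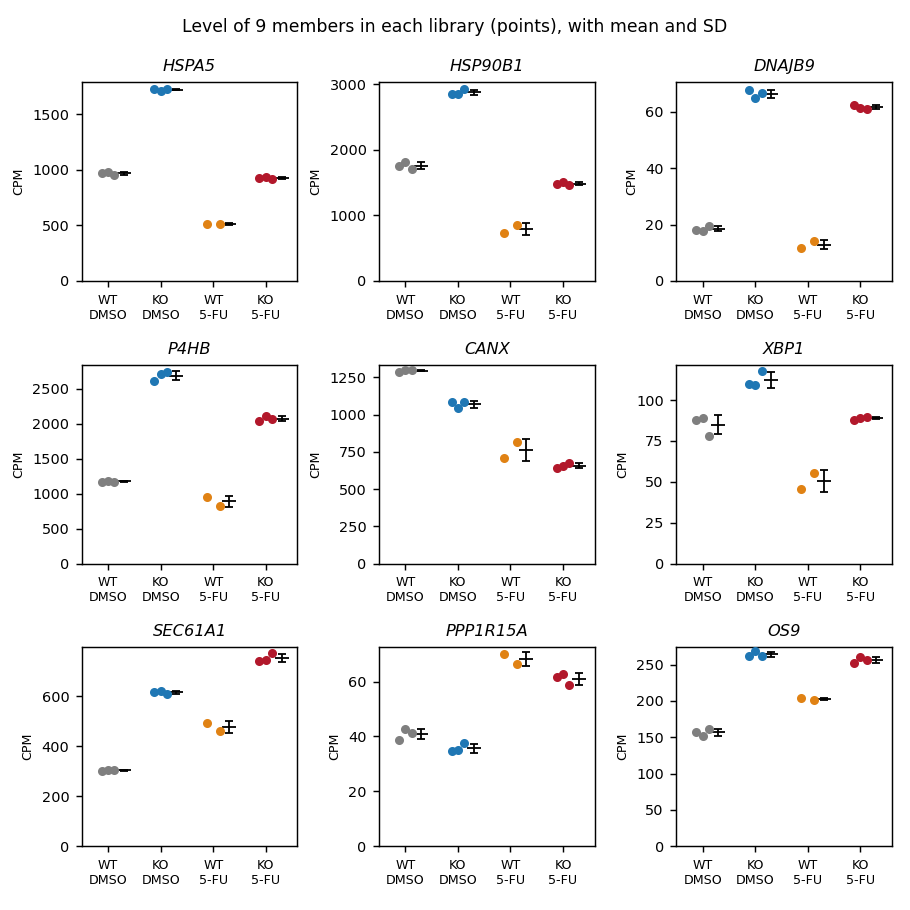
Level in CPM of 9 members in each library (points), with the mean and SD of each group (3 libraries, 2 for *WT* with 5-FU). *HSPA5*, *HSP90B1* and *CANX* were called lower after 5-FU in both genotypes, and *PPP1R15A* higher. These calls were absent with an added RUVg-type factor, which cannot be told apart from the treatment.

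Whether the response to 5-FU differed between the genotypes was tested by the interaction. 0 of 47 members were called, compared to 3.42% of all genes higher and 6.66% lower. 25 members had an unadjusted p under 0.05 in edgeR, 4 were higher and 11 lower at FDR < 0.05 alone (all genes 10.1% and 16%), and DESeq2 called 0. The differences of the responses lay between -0.47 (*SYVN1*) and 0.43 (*DNAJB9*) on the log2 scale, with a median of -0.030 (all genes -0.095) that turned to 0.029 with TMM factors and 0.048 with DESeq2. 5 of the 12 ERAD genes were among the 11 that passed FDR < 0.05 below 0. With 1 RUVg-type factor 6 members passed FDR < 0.05, 5 of them among the 15. Without *WT* 5-FU replicate 3, 28 members instead of 15 passed FDR < 0.05 and *SYVN1* was called lower.

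Members with an ERSE were set beside the 36 members whose windows hold none. In DMSO 4 of the 8 were higher in *miR-34abc-KO* cells, compared to 17 of the 36 (all genes 9.1%), with medians of 0.64 and 0.57. With 5-FU these counts were 6 of 8 and 12 of 36 (all genes 7.58%), with medians of 0.83 and 0.48. After 5-FU 4 of 8 were lower in *WT* cells, compared to 5 of 36 (all genes 9.38%). In *miR-34abc-KO* cells 6 of 8 were lower, compared to 8 of 36 (all genes 12%). *CANX* was the only one of the 8 with a negative log2 fold change between genotypes. These counts were not tested.

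Sites complementary to the *miR-34a-5p* seed were searched in the longest annotated 3′ UTR of each gene (GENCODE, GRCh38). The mature *miR-34a-5p* and *miR-34b-5p* from RefSeq are shown with their seeds (bases 2 to 8) in capitals. The seed of *miR-34a-5p* alone defined the search. *miR-34b-5p* is shifted by a base, so its seed holds only part of the searched match, and sites for its own seed were not searched. *miR-34c-5p* is not shown and was not used to define the search.
hsa-miR-34a-5p (chromosome 1, 9151735 to 9151756, minus strand): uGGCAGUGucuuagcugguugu
hsa-miR-34b-5p (chromosome 11, 111512950 to 111512972, plus strand): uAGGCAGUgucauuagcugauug
The complement of the *miR-34a-5p* seed, CACTGCC, was present in 6 of 47 members (12.8%), compared to 2470 of 13067 tested genes with an annotated 3′ UTR (18.9%). Matches in 3 of these members are shown with their flanks because these genes carry results above (match in capitals).
*XBP1*, first match (chr22:28795330-28795336): catccagcCACTGCCcaaagcca
*XBP1*, next match (chr22:28795129-28795135): gactattaCACTGCCtggaggat
*HSPA5* (chr9:125235081-125235087): ctcagctgCACTGCCcgaaaagc
*SEC61A1*, first match (chr3:128070891-128070897): aggacaggCACTGCCcagcagca
*SEC61A1*, next match (chr3:128071349-128071355): ggttctccCACTGCCctgtctgc
The other members with a match were *DNAJC10*, *SYVN1* and *SSR1*. In DMSO 2 of the 6 were higher in *miR-34abc-KO* cells, compared to 21 of the 41 members without a match (all genes 9.1%), with medians of 0.53 and 0.64. With 5-FU the counts were 3 of 6 and 17 of 41 (all genes 7.58%), with medians of 0.58 and 0.51. These counts were not tested, and the share called among all tested genes with a match was not counted. An 8mer match was present in *DNAJC10* alone (2.13% of members, 6.31% of tested genes).

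A further 90 genes of ER pathways, from a list that also reflects earlier results of these data, gave the surroundings. In DMSO 20 of them were higher and 1 lower in *miR-34abc-KO* cells (22.2% and 1.11%, all genes 9.1% and 4.97%), and with 5-FU 17 were higher and 5 lower (18.9% and 5.56%, all genes 7.58% and 10.6%). Of the 21 translocation and N-glycosylation genes, 10 were higher in DMSO and 9 with 5-FU, and 1 was lower in each. *SEC63* (-1.76 ± 0.077, FDR = 4.47e-11), whose protein brings BiP to the translocon, *MAN1B1* (1.22 ± 0.047, FDR = 1.13e-11), an ERAD mannosidase, and *SEC11C* (1.17 ± 0.073, FDR = 2.53e-09), a signal peptidase subunit, differed most in DMSO. With 5-FU *SEC63* (-1.77 ± 0.085, FDR = 2.03e-10), *CHAC1* (-1.68 ± 0.13, FDR = 3.14e-08) and *CREB3L1* (-1.54 ± 0.50, FDR = 0.0168) differed most, *CREB3L1* at no more than 27 counts in any library.

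Of the 7 genes listed as PERK and ATF4 output, 4 were higher after 5-FU in *WT* cells (57.1%, all genes 18.5%). In *miR-34abc-KO* cells 3 were (42.9%, all genes 13.3%). None of them was called with an added RUVg-type factor, which cannot be told apart from the treatment. The name is that of the list, and whether PERK or ATF4 acted on these genes was not tested. *CHAC1* (3.37 ± 0.14, FDR = 1.1e-11), which encodes a glutathione-degrading enzyme, *ATF3* (2.42 ± 0.074, FDR = 1.81e-13), a stress transcription factor, and *SESN2* (2.18 ± 0.073, FDR = 5.29e-13), a stress-induced sestrin, rose most in *WT* cells. In *miR-34abc-KO* cells *ATF3* (1.98 ± 0.068, FDR = 6.58e-13) and *SESN2* (1.84 ± 0.068, FDR = 1.45e-12) rose, and the thioredoxin-related *TMX4* (-0.99 ± 0.085, FDR = 4.59e-08) fell. *ATF4* (-0.49 ± 0.051, FDR = 4.67e-07) and *ASNS* (-0.48 ± 0.091, FDR = 0.000267) were below 0 there and under the fold threshold. Over all 90 genes 5 were higher and 14 lower after 5-FU in *WT* cells (5.56% and 15.6%, all genes 18.5% and 9.38%), and 3 and 16 in *miR-34abc-KO* cells (3.33% and 17.8%, all genes 13.3% and 12%). TMM factors and DESeq2 each gave 6 in place of 3, and 0 of the 90 were called after 5-FU with 1 RUVg-type factor (edgeR, 15 with an unadjusted p under 0.05 in *WT* and 17 in *miR-34abc-KO* cells). The interaction was called higher for 1 and lower for 4 of the 90 (1.11% and 4.44%, all genes 3.42% and 6.66%), 3 of them in this output, *CHAC1* (-2.42 ± 0.21, FDR = 7.82e-07), the asparagine synthetase gene *ASNS* (-1.22 ± 0.13, FDR = 7.94e-06) and *ATF4* itself (-0.74 ± 0.076, FDR = 5.02e-06).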

How the data were processed

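The authors aligned reads to GRCh38 with ENSEMBL annotation in CLC Genomics Workbench and deposited raw counts per gene and library. Members and gene lists were chosen with earlier results of these data known, and all 48 members may be named. Values per library are given for members called in a comparison and for the 3 sensors, and in part for *SYVN1* and *SEL1L*. Statistics are given for the 3 largest changes per role and comparison, and of the other ER genes for the 3 largest called changes per comparison. Library sizes were multiplied by upper-quartile factors between 0.955 and 1.05, and counts were tested with edgeR 4.0.16 (glmQLFit, glmQLFTest, two-sided, 1 mean per group, 16123 genes, Benjamini-Hochberg adjustment), and CPM were computed from them. The biological coefficient of variation was 6.72%. Libraries with the same replicate number did not deviate together (15 pairs, r from -0.091 to 0.078, none over 0.1). The column names of *WT* 5-FU replicates 2 and 3 carry the numbers 1 and 2, and by the numbers in the column names r was -0.15 to 0.044 (15 pairs). The main fit therefore used no pairing, although these values cannot show that samples were not paired. The fit was tested on simulated data. Alternatives were TMM factors, DESeq2 1.42.0, both filters, the fold threshold, glmTreat, 1 RUVg-type factor, replicate blocks and leaving out each library, with 2 additions chosen after seeing the data (blocks by the numbers in the column names, and alternatives for the other ER genes). Promoter windows of *PDIA3*, *DERL1*, *DERL3* and *SEC24D* and protein termini were not analysed here.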

Additional observations from a re-analysis of the deposited data

Results flagged for a closer look

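The response to 5-FU differed between the genotypes in 15 of the 47 tested members by the interaction test (edgeR, FDR < 0.05, no minimum fold change), 4 above 0 and 11 below, compared to 10.1% and 16% of all genes by the same rule. Differences are *miR-34abc-KO* minus *WT* on the log2 scale, followed by the responses themselves.
Of the 4 above 0, the largest were *DNAJB9* (0.43, from -0.53 in *WT* to -0.11 in *miR-34abc-KO* cells) and *XBP1* (0.41, from -0.75 in *WT* to -0.34 in *miR-34abc-KO* cells). The others were *MANF* (0.40, from -1.46 in *WT* to -1.06 in *miR-34abc-KO* cells) and *DNAJB11* (0.26, from -0.41 in *WT* to -0.15 in *miR-34abc-KO* cells).
Of the 11 below 0, 5 act in ERAD, *SYVN1* (-0.47, from 0.23 in *WT* to -0.24 in *miR-34abc-KO* cells), *OS9* (-0.41, from 0.37 in *WT* to -0.042 in *miR-34abc-KO* cells), *SEL1L* (-0.40, from -0.065 in *WT* to -0.47 in *miR-34abc-KO* cells), *HERPUD1* (-0.35, from -0.28 in *WT* to -0.63 in *miR-34abc-KO* cells) and *EDEM2* (-0.35, from 0.012 in *WT* to -0.34 in *miR-34abc-KO* cells).
The other 6 were *CREB3L2* (-0.43, from -0.18 in *WT* to -0.61 in *miR-34abc-KO* cells), *DNAJC3* (-0.33, from -0.45 in *WT* to -0.78 in *miR-34abc-KO* cells), *SDF2L1* (-0.38, from -0.45 in *WT* to -0.83 in *miR-34abc-KO* cells), *UGGT1* (-0.25, from -0.38 in *WT* to -0.63 in *miR-34abc-KO* cells), *SEC61A1* (-0.36, from 0.65 in *WT* to 0.29 in *miR-34abc-KO* cells) and *SEC61B* (-0.38, from -0.18 in *WT* to -0.55 in *miR-34abc-KO* cells).
For *SDF2L1* the FDR was 0.053 to 0.34 without any of 9 of the 11 libraries in turn, for *UGGT1* it was 0.051 without *miR-34abc-KO* DMSO replicate 1 or 5-FU replicate 2, and for *DNAJB11* 0.051 without *WT* DMSO replicate 1.
With 1 RUVg-type factor 5 of the 15 still passed (*DNAJC3*, *MANF*, *UGGT1*, *HERPUD1* and *SEL1L*), and the other 10 did not, *SDF2L1* with the opposite sign. *SDF2L1* and *UGGT1* did not pass with TMM factors or DESeq2, nor *EDEM2* with DESeq2, nor *UGGT1* and *EDEM2* without a filter on low counts.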

How the results depend on the processing

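The direction of the KO-minus-WT differences of all called members was the same under every alternative run. TMM factors, DESeq2, both filters and the replicate block left the counts of called members within 1.5 times of those reported. With the replicate block 21 members instead of 20 were higher with 5-FU, the other counts of calls were unchanged, no called member lost its call, and the interaction of *SDF2L1* no longer passed FDR < 0.05 (0.078). A replicate block by the numbers in the column names, added after seeing the data, changed no count of calls. Without a minimum fold change, 38 members were higher and 3 lower in *miR-34abc-KO* cells in DMSO and 38 and 3 with 5-FU, 6 were higher and 32 lower after 5-FU in *WT* cells and 5 and 35 in *miR-34abc-KO* cells, and the interaction gave 4 and 11. glmTreat called 22 members between genotypes in DMSO and 15 with 5-FU, in either direction, instead of 23 and 20. After 5-FU it called 9 in *WT* cells, 1 of them higher, and 11 in *miR-34abc-KO* cells, 10 of them lower, instead of 13 and 17. Leaving out single libraries gave 23 to 25 and 19 to 23 members higher in *miR-34abc-KO* cells, 11 to 13 and 15 to 17 lower after 5-FU, and 0 to 1 lower in the interaction. With 1 RUVg-type factor, 0 members were called higher or lower after 5-FU in either genotype (edgeR, 10 with an unadjusted p under 0.05 in each) and 1 (*SEL1L*) in the interaction, where 5 of the 15 members past FDR < 0.05 still passed. The log2 fold changes after 5-FU in *WT* cells then turned to 2.19 (*XBP1*), -0.074 (*PPP1R15A*), 0.63 (*HSP90B1*), 1.62 (*ERO1A*), 1.03 (*CANX*) and 0.81 (*SPCS3*). In *miR-34abc-KO* cells they turned to 0.64 (*HSP90B1*), 0.85 (*DNAJC3*), 0.53 (*PDIA6*), 0.91 (*CANX*), 0.46 (*UGGT1*) and 0.12 (*HERPUD1*), and the interaction of *SDF2L1* to 0.11. This factor lay almost wholly between treatments (96.9% of its variance), so the factor and the treatment cannot be told apart. Its controls were the 11123 tested genes left after removing the 5000 with the smallest p in any comparison. After 5-FU in *WT* cells alone, 10307 genes had an unadjusted p under 0.05 (edgeR). The controls thus held genes that differed after 5-FU, and the fit with this factor cannot decide whether members changed with the treatment. *EIF2AK3*, *SDF2L1*, *MANF*, *EDEM2* and *SEC61B* lost their calls in DMSO in that fit, and the cause was not tested. The same fit called 25 members between genotypes in DMSO and 23 with 5-FU, in either direction, instead of 23 and 20. Of the other ER genes, it called 2 lower in *miR-34abc-KO* cells in DMSO and 0 in either direction after 5-FU, and TMM factors and DESeq2 each called 6 higher after 5-FU in *miR-34abc-KO* cells. The alternatives for these other genes were added after seeing the data. An ERSE with 1 mismatch was present in 16 members (all genes 1.89%), and an 8mer match to *miR-34a-5p* in 1. With 2 libraries of *WT* cells with 5-FU, comparisons that use this group have the fewest replicates.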
